A study of Mus musculus with 4 samples.

Results

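Hspa5, Hsp90b1, Xbp1, Atf4, Atf6, Ddit3, Ern1, Eif2ak3, Calr and Dnajb9 are 10 genes of the unfolded protein response, named for their part in that pathway and not for any value measured here. All 10 were found among the 21938 protein-coding genes of GENCODE vM21 (GRCm38) on the autosomes and sex chromosomes. Every peak inside these genes or within 5 kb of the transcription start site (TSS, the 5′ end of the gene) was collected from each of 4 peak lists. This gave 8 peaks of the 10582 in the WT ATACseq list, 7 of 10764 in the Uhrf1hepKO ATACseq list, 19 of 51450 in the WT H2A.Z list and 20 of 47135 in the Uhrf1hepKO H2A.Z list.

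The livers came from male C57Bl/6 mice of 8 to 12 weeks on a normal diet. The WT liver was Uhrf1-fl/fl, so the floxed alleles were common to both genotypes. The Uhrf1hepKO liver was Uhrf1-fl/fl;Alb:Cre, in which the albumin promoter drives Cre in hepatocytes while the other cells of the liver keep Uhrf1, the protein that helps to maintain DNA methylation. ATACseq reads accessible DNA through cutting by the Tn5 transposase, and H2A.Z ChIPseq reads nucleosomes that hold this histone variant after digestion with micrococcal nuclease. A single liver of each genotype was used for both assays, which gave 4 libraries and 1 library per condition, so no difference between the genotypes has a replicate error and no p-value is given. The livers were whole, and fewer cells of a type cannot be told apart from less signal per cell.

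The unfolded protein response is set off when unfolded proteins gather in the endoplasmic reticulum (ER), and it is well known in the liver because hepatocytes secrete large amounts of protein. Its sensors in the ER membrane are IRE1α (gene Ern1), PERK (gene Eif2ak3) and ATF6. IRE1α splices the mRNA of the transcription factor XBP1, PERK lowers translation in general while favouring that of ATF4, and ATF6 is cut in the Golgi to free its own transcription factor domain. These factors act on genes for ER chaperones and for the degradation of misfolded proteins, many of which carry the ER stress response element (ERSE) in their promoters.

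Promoter sequences are shown for 5 of the genes because they carry the positions that the peaks are set against below. They are from RefSeq (GRCm38.p6), run 5′ to 3′ along the gene, and reach from 250 bp upstream to 50 bp downstream of the RefSeq TSS. The table used held 9 of the 10 genes, all but Atf6. In the chaperone genes, capitals mark each exact match to the ERSE, searched on both strands as CCAAT and CCACG with 9 free bases between them. Near matches were not searched for. In Eif2ak3 they mark each CCAAT box on either strand, and in Xbp1 they mark the bases under the WT H2A.Z peak.
Hspa5 (chr2:34771840-34772139, plus strand): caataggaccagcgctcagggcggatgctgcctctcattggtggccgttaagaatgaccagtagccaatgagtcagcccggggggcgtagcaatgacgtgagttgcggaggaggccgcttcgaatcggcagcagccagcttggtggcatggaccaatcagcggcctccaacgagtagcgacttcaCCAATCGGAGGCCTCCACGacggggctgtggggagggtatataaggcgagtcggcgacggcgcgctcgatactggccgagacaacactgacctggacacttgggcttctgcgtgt
Hsp90b1 (chr10:86705395-86705694, minus strand): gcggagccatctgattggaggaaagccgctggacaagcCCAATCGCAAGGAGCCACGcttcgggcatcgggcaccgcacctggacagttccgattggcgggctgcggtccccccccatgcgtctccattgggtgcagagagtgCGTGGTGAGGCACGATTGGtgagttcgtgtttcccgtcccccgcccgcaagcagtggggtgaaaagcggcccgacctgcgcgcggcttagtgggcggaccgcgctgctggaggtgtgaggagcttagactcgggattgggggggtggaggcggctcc
Calr (chr8:84846882-84847181, minus strand): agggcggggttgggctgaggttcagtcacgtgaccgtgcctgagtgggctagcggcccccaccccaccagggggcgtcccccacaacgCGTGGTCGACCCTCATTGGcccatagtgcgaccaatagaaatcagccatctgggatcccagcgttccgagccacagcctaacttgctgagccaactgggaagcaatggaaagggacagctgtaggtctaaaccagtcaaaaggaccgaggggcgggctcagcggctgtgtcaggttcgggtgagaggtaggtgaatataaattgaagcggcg
Eif2ak3 (chr6:70844265-70844564, plus strand): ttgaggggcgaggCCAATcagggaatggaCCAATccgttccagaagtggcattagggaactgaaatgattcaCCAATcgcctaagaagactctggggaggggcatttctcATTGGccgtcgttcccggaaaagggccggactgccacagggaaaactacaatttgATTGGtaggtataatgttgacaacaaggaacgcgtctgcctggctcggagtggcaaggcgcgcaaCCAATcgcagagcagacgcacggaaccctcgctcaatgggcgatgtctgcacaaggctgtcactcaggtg
Xbp1 (chr11:5520391-5520690, plus strand): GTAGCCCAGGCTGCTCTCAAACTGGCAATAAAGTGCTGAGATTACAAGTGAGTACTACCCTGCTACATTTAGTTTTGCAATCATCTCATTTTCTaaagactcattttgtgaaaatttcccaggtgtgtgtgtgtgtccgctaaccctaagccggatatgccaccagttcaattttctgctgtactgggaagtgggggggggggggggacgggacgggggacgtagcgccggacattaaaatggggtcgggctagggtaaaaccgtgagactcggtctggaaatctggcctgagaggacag

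The ATACseq lists held few reads per site and the H2A.Z lists more. The commonest fold was 3.52 in the WT (253 peaks) and 3.33 in the Uhrf1hepKO ATACseq list (291 peaks). With its p-value, it stands for 8 and 9 reads (or fragments) over backgrounds of 1.56 and 2.0 reads. A fold is taken over the background of its own library and is not scaled between libraries. The H2A.Z backgrounds were 3.1 and 3.3 reads, the median summit held 21 and 23 reads, and the lowest held 11 and 12. The backgrounds were thus 1.28 times higher in Uhrf1hepKO for ATACseq, as worked out from the commonest fold alone, and 1.06 times for H2A.Z. At genes without a peak, signal was below what could be called at this depth. Of 7 hepatocyte marker genes in the annotation, ATACseq peaks within 5 kb of the TSS were present at 0 in WT and at 1 (Alb) in Uhrf1hepKO, and H2A.Z peaks at 2 (Ttr and Fgb) and 1 (Fgb). No peak in any list lay there at the chosen markers of Kupffer cells (5 genes), endothelial cells (5) or stellate cells (4), so the lists do not tell the cell types apart. Of 4 cholangiocyte markers only Sox9 had a peak, in 3 of the lists. Of 5 genes chosen as not of the liver, Gfap and the neuronal gene Neurod1 had H2A.Z peaks in both livers. The rest of these had no peak. Gfap is expressed in astrocytes but also in stellate cells. At Uhrf1, each of the 4 lists held 1 peak within 5 kb of the TSS. Which exons Cre removes is not given in the labels, so this checks nothing about the deletion.

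An ATACseq peak was present within 5 kb of the TSS of 7 of the 10 genes, the same 7 in both livers. They were Eif2ak3 among the sensors, Atf4 and Ddit3 among the transcription factors, and all 4 chaperone genes. The share was 70.0% (Wilson 95% interval 39.7 to 89.2%) in each list, against 30.2% of all protein-coding genes in WT and 27.9% in Uhrf1hepKO. None was found in this window at Ern1, Atf6 or Xbp1. All 7 peaks covered the TSS itself in both livers, which was so for 60.0% of protein-coding genes with a peak in WT and 58.0% in Uhrf1hepKO. None of the 10 genes had its ATACseq peak in one liver only, against 7.19% of protein-coding genes with one in WT alone and 4.85% in Uhrf1hepKO alone.

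An H2A.Z peak lay in the same window at 9 of the 10 genes in WT and at all 10 in Uhrf1hepKO. The backgrounds were 52.8% and 51.0% of protein-coding genes. Hspa5 was the gene without a WT peak, which left it with H2A.Z in Uhrf1hepKO only, as 2.19% of protein-coding genes were. No member had H2A.Z in WT only, against 3.95%. Both assays had a peak at 6 genes in WT and 7 in Uhrf1hepKO, with backgrounds of 27.8% and 25.0%. All 4 lists held a peak at Eif2ak3, Atf4, Ddit3, Hsp90b1, Calr and Dnajb9, 6 genes in all, against 20.9% of protein-coding genes. No member was without a peak in all lists, which was the case for 42.3% of protein-coding genes.

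The genes have more CpGs around the TSS than protein-coding genes as a whole, and this moves with the share that has a peak. Within 500 bp of the TSS the median count of CpGs was 73 over the 10 genes, from 53 at Atf6 to 98 at Eif2ak3, and 41 over all protein-coding genes. When protein-coding genes were put into 10 classes by this number, the 4 classes with 53 or more CpGs, which hold all 10 genes, had a WT ATACseq peak at 46.9 to 53.5% of genes and a WT H2A.Z peak at 74.2 to 79.2%. The 7 genes with an ATACseq peak had 58 to 98 CpGs. The genes without one had 53 (Atf6), 62 (Xbp1) and 96 (Ern1), so both ranges overlapped. The part of CpGs in the counts above was not tested.

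**Figure D1:**
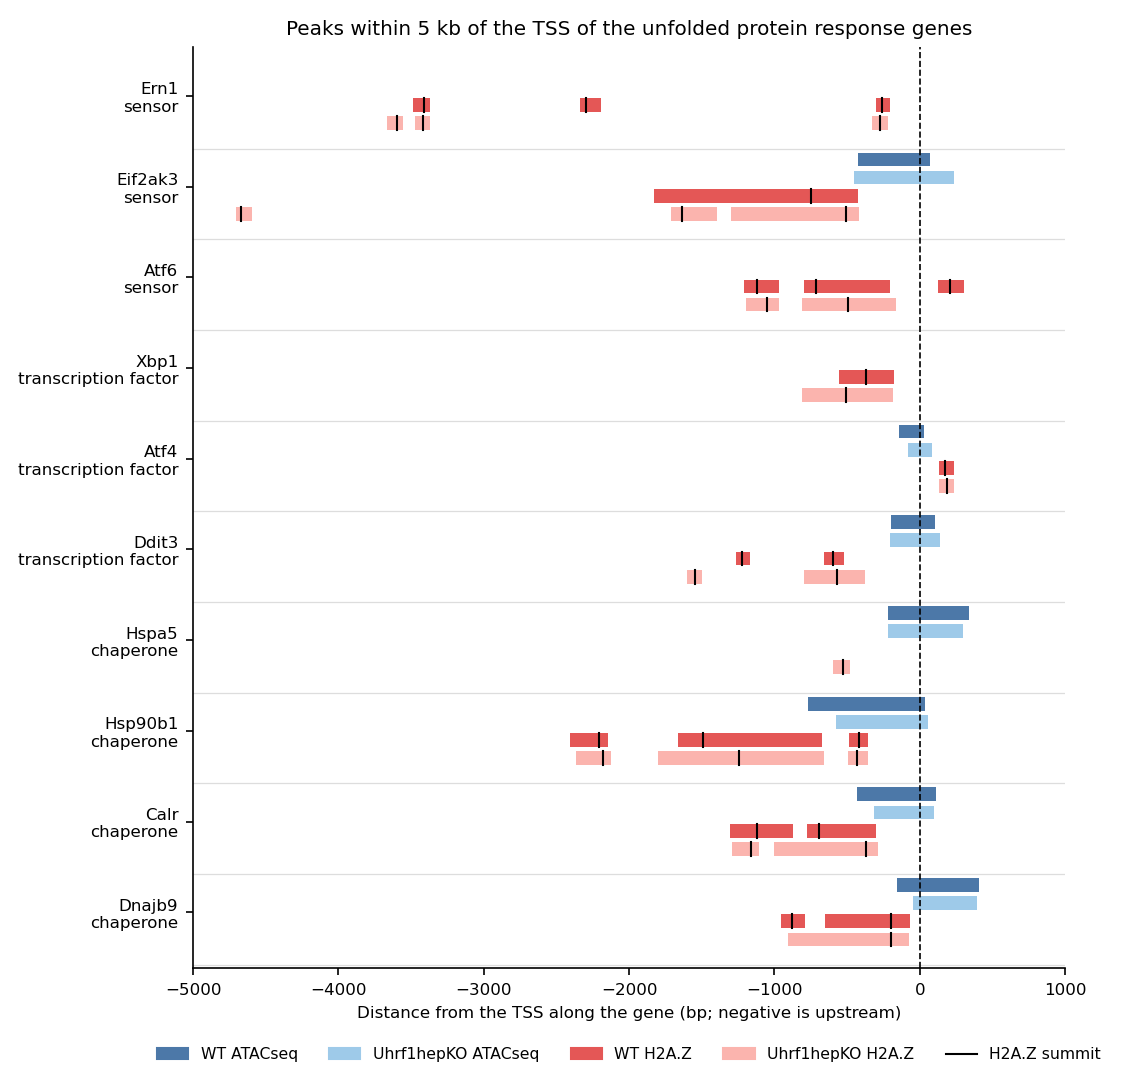
Peaks of the 4 lists drawn to scale along the distance from the TSS in bp (negative is upstream), 1 band per gene, with a black tick at each H2A.Z summit. ATACseq peaks span the TSS at 7 genes in both livers, and the H2A.Z peaks lie beside the TSS, upstream at every gene but Atf4 and, in WT, with 1 of the peaks of Atf6 downstream.

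Among the sensors, Eif2ak3 had accessible DNA over its TSS and Ern1 and Atf6 had H2A.Z alone. Eif2ak3 (ENSMUSG00000031668, chr6:70844515-70905245, plus strand) encodes PERK, the kinase that phosphorylates the translation factor eIF2α. Its WT ATACseq peak (chr6:70844091-70844584) ran from 424 bp upstream to 69 bp downstream of the TSS with a fold of 6.9. The Uhrf1hepKO peak (chr6:70844065-70844750) ran from 450 bp upstream to 235 bp downstream with a fold of 6.45. These were among the strongest ATACseq peaks of their lists, at percentiles 95.2 and 94.1 of fold. The promoter printed above lies wholly under both of them, and its 6 CCAAT boxes with it.

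H2A.Z at Eif2ak3 filled the sequence upstream of the accessible stretch. In WT it was 1 peak of 1403 bp, from 1826 to 424 bp upstream, with 40 reads over its summit at 750 bp. It met the ATACseq peak by 1 bp. In Uhrf1hepKO the same stretch held a peak of 881 bp with 45 reads at 508 bp and a smaller one with 19 reads at 1637 bp. A further peak, with 16 reads at 4673 bp upstream, was found in Uhrf1hepKO only.

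Ern1 (ENSMUSG00000020715, chr11:106394650-106487852, minus strand) encodes IRE1α, the kinase and RNase that splices Xbp1 mRNA. Neither the gene nor the window held an ATACseq peak, and the nearest was 168859 bp away in WT and 12907 bp in Uhrf1hepKO. Both livers had H2A.Z close to the TSS, with 18 reads at 259 bp upstream in WT and 23 reads at 274 bp in Uhrf1hepKO. Both also had it farther upstream, with 16 reads at 3412 bp and 20 reads at 3421 bp. A WT peak of 13 reads at 2299 bp and a Uhrf1hepKO peak of 17 reads at 3595 bp had no partner in the other liver.

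Atf6 (ENSMUSG00000026663, chr1:170704674-170867771, minus strand) encodes the sensor that is itself the precursor of a transcription factor. The nearest ATACseq peak to its TSS was 17301 bp upstream in both livers. H2A.Z covered 2 stretches upstream in each liver. The one nearer to the TSS (chr1:170867975-170868569 in WT) held 27 reads at 717 bp in WT and 29 reads at 497 bp in Uhrf1hepKO. The farther one (chr1:170868741-170868978 in WT) held 20 reads at 1119 bp and 25 reads at 1053 bp. In WT a further peak lay downstream of the TSS, in an intron, from 126 to 304 bp, with 12 reads at 210 bp and a q-value of 0.0108. This weak peak had no overlap in Uhrf1hepKO, and it made Atf6 the one gene with H2A.Z on both sides of the TSS.

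Among the transcription factor genes, Atf4 and Ddit3 had an ATACseq peak over the TSS and Xbp1 had none. Xbp1 (ENSMUSG00000020484, chr11:5520659-5525893, plus strand) encodes the factor made from the mRNA that IRE1α splices. Its nearest ATACseq peak was 21550 bp away in WT and 50306 bp in Uhrf1hepKO. It had 1 H2A.Z peak in each liver, from 558 to 175 bp upstream in WT with 18 reads at 370 bp, and from 807 to 183 bp upstream in Uhrf1hepKO with 28 reads at 506 bp. The Uhrf1hepKO peak covered 625 bp against 384 bp in WT and reached farther from the TSS. The capitals in the Xbp1 sequence above show where the WT peak ends.

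Atf4 (ENSMUSG00000042406, chr15:80255184-80257541, plus strand) encodes the factor whose translation PERK favours, a regulator of amino acid and redox genes. Its ATACseq peaks were the narrowest of the 7 genes, 167 bp in WT (chr15:80255044-80255210) and 171 bp in Uhrf1hepKO (chr15:80255100-80255270), with folds of 3.74 and 4.95 and q-values of 0.0175 and 1.27e-05. Its H2A.Z was downstream only. The peak lay over the untranslated part of an exon, from 130 to 233 bp in WT with 27 reads at 176 bp, and from 129 to 238 bp in Uhrf1hepKO with 26 reads at 184 bp. The H2A.Z peaks of Atf4 were thus almost the same in position and height in both livers.

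Ddit3 (ENSMUSG00000025408, chr10:127290774-127296288, plus strand) encodes CHOP, a factor tied to cell death under lasting ER stress. Its ATACseq peak spanned 196 bp upstream to 106 bp downstream in WT with a fold of 4.34, and 206 bp upstream to 136 bp downstream in Uhrf1hepKO with a fold of 5.45. The H2A.Z peak nearest to the TSS held 20 reads at 599 bp upstream in WT and 22 reads at 567 bp in Uhrf1hepKO. It was 133 bp wide in WT and 418 bp in Uhrf1hepKO. A second peak was found in each liver but at different places, 1223 bp upstream with 16 reads in WT and 1547 bp upstream with 22 reads in Uhrf1hepKO. A second gene model also named Ddit3 starts 55 bp downstream, and the peaks cannot be assigned to one of these models.

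All 4 chaperone genes had an ATACseq peak over the TSS in both livers. Hspa5 (ENSMUSG00000026864, chr2:34771970-34777547, plus strand) encodes BiP, the chaperone of the ER lumen that also holds the sensors inactive. Its ATACseq peak began at the same base in both livers (chr2:34771752-34772307 in WT and chr2:34771752-34772268 in Uhrf1hepKO), 218 bp upstream of the TSS. The fold was 5.08 in WT and 6.34 in Uhrf1hepKO. The whole promoter printed above lies under both peaks.

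Hspa5 was also the gene where the H2A.Z lists parted. In WT no H2A.Z peak lay in the gene or in the window, and the nearest was 16754 bp upstream of the TSS. In Uhrf1hepKO a peak of 116 bp (chr2:34771373-34771488) lay 263 bp upstream of the accessible stretch, with 21 reads (Poisson 95% interval 13.0 to 32.1) at 528 bp upstream. Its fold of 5.11 stood at percentile 46.0 of its list. The WT list has no peak with fewer than 11 reads at its summit, so a WT signal under that height would not be listed. Only 75 protein-coding genes (0.342%) had the peak pattern of Hspa5, with ATACseq in both livers and H2A.Z in Uhrf1hepKO alone.

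Hsp90b1 (ENSMUSG00000020048, chr10:86690209-86705509, minus strand) encodes GRP94, the HSP90 of the ER. It had the widest accessible stretch of the 10 genes in WT, 806 bp (chr10:86705471-86706276), against 632 bp in Uhrf1hepKO (chr10:86705456-86706087). The folds over these widths were 4.07 and 4.74. H2A.Z formed 3 upstream peaks in each liver, and each overlapped its partner in the other liver. The one nearest to the TSS lay inside the accessible stretch of both livers and held 27 reads at 418 bp in WT and 39 reads at 431 bp in Uhrf1hepKO. The middle one was 994 bp wide in WT and 1141 bp in Uhrf1hepKO, with 36 reads at 1491 bp and 34 reads at 1243 bp, and the farthest held 17 reads at 2208 bp and 22 reads at 2182 bp.

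Calr (ENSMUSG00000003814, chr8:84841850-84846934, minus strand) encodes calreticulin, the lectin chaperone that binds calcium and glycoproteins in the ER. Its ATACseq peak was 548 bp in WT (chr8:84846821-84847368) with a fold of 5.52 and 411 bp in Uhrf1hepKO (chr8:84846840-84847250) with a fold of 4.94. The nearer of 2 upstream H2A.Z peaks held 24 reads at 696 bp in WT and 31 reads at 370 bp in Uhrf1hepKO, and it overlapped the ATACseq peak by 132 bp and 32 bp. The farther one held 19 reads at 1118 bp in WT and 15 reads at 1159 bp in Uhrf1hepKO.

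Dnajb9 (ENSMUSG00000014905, chr12:44205559-44210326, minus strand) encodes ERdj4, a DNAJ partner of BiP that also acts on IRE1α. Its ATACseq peak reached mainly downstream of the TSS, from 160 bp upstream to 404 bp downstream in WT and from 44 bp upstream to 392 bp downstream in Uhrf1hepKO, with folds of 6.7 and 6.21. The RefSeq TSS of the gene is 258 bp downstream of the GENCODE one, inside both peaks. The H2A.Z peak beside it had the most reads of any peak at the 10 genes in Uhrf1hepKO, 51 at 201 bp upstream, and 39 at 198 bp upstream in WT. A second WT peak with 26 reads at 879 bp upstream lay within the single Uhrf1hepKO peak of 833 bp for most of its length.

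The H2A.Z of these genes lay on the upstream side of the TSS. Of the 18 WT summits in the window, 16 were upstream and 2 downstream, and of the 19 Uhrf1hepKO summits 18 were upstream and 1 downstream. No H2A.Z peak covered a TSS. By gene, the summits were upstream only at 7 of 9 genes in WT (77.8%, Wilson interval 45.3 to 93.7%) and at 9 of 10 in Uhrf1hepKO (interval 59.6 to 98.2%), against 32.4% and 34.9% of protein-coding genes with an H2A.Z peak. They were on both sides at 1 gene in WT and 0 in Uhrf1hepKO, against 48.9% and 46.0%, and downstream only at Atf4 in both livers, against 18.7% and 19.1%. With 1 library per condition this difference from the background was not tested.

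The same held where the TSS was accessible. Of the 6 genes with H2A.Z and an ATACseq peak over the TSS in WT, 5 had upstream summits only and 0 had both sides, while 27.1% of the 3820 such protein-coding genes had upstream summits only and 65.3% had both. In Uhrf1hepKO it was 6 of 7 and 0 of 7, against 30.0% and 61.6% of 3338. Within 1 kb of the TSS the counts were again 7 of 9 and 9 of 10, with backgrounds of 32.4% and 34.8%. When every annotated transcript start was counted, they were 6 of 9 and 8 of 10, with backgrounds of 29.7% and 32.1%, because Calr then had summits on both sides in each liver.

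**Figure D2:**
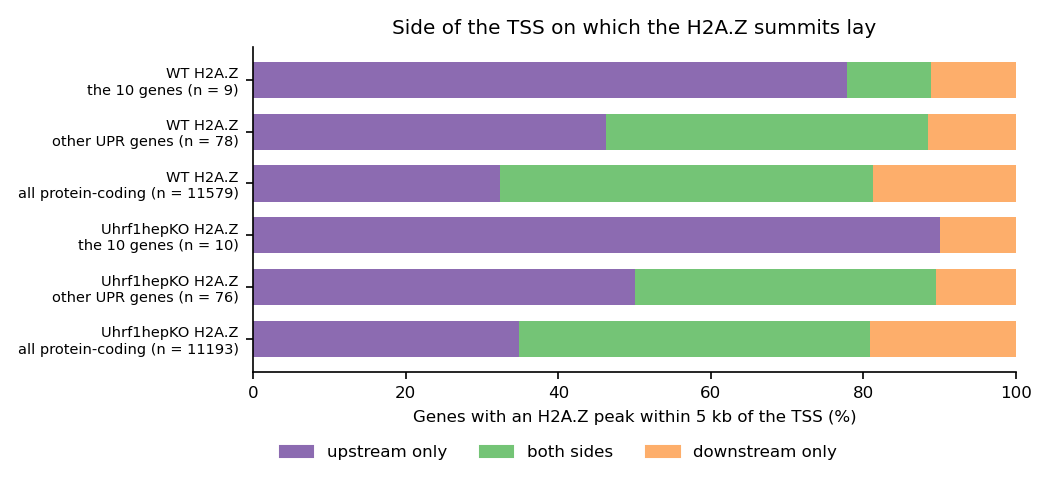
Share (%) of genes with H2A.Z near the TSS (5 kb on either side) whose summits lay upstream only, on both sides or downstream only, for the 10 genes, the other unfolded protein response genes (UPR) and all protein-coding genes in each H2A.Z list. Upstream-only genes make up 7 of the 9 members in WT and 9 of the 10 in Uhrf1hepKO, and 32.4% and 34.9% of all protein-coding genes.

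At 4 of the genes the upstream peaks lie over a neighbour on the other strand. Ttc41 starts 302 bp upstream of Hsp90b1, and all 3 H2A.Z peaks of each liver and part of the ATACseq peak lie over it. The noncoding gene 1700122E12Rik starts 254 bp upstream of Calr and holds both H2A.Z peaks of each liver. The noncoding gene Gm4189 starts 14 bp inside Ddit3, and Gm9929 starts 874 bp upstream of Atf6. In all, 7 of the 18 WT and 7 of the 19 Uhrf1hepKO H2A.Z peaks lay over such a neighbour, and whether they belong to it or to the member cannot be told apart. Ern1, Eif2ak3, Xbp1, Hspa5 and Dnajb9 have no such gene under their H2A.Z peaks, and they were upstream only in every list in which they had a peak. Atf4 has none either, and it was downstream only in both livers. Of other neighbours within 1 kb, the microRNA gene Gm25745 starts 61 bp inside Hsp90b1 and Mir5627 starts 13 bp inside Dnajb9.

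At none of the 9 genes with H2A.Z in both livers did the height of the best summit differ beyond counting error. Reads over a single base were compared, so gene length does not enter, and a gene's highest summit was taken in each liver. In WT the order was Eif2ak3 (40 reads), Dnajb9 (39), Hsp90b1 (36), Atf4 and Atf6 (27 each), Calr (24), Ddit3 (20), and Ern1 and Xbp1 (18 each). The Poisson intervals of neighbours in this order overlap, but those of its ends do not, since the intervals of Eif2ak3 (28.6 to 54.5) and of Ern1 and Xbp1 (10.7 to 28.4) are apart. In Uhrf1hepKO, Dnajb9 (51 reads), Eif2ak3 (45) and Hsp90b1 (39) were again the highest, and Hspa5 (21) was the lowest.

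Of the 9 genes with H2A.Z in both livers, 8 had more reads in Uhrf1hepKO, while 61.1% of the 10712 protein-coding genes did. Atf4 had fewer, as 31.3% did. The median ratio of Uhrf1hepKO to WT reads was 1.12 over the members, 1.07 over protein-coding genes (quartiles 0.952 and 1.19) and 1.08 over 74 other genes of the response, close to the ratio of the backgrounds. The ratio was at least 1.5 at Xbp1 alone among the members, against 2.78% of protein-coding genes, and no member had a ratio as far below 1, against 0.822%. For Xbp1 it was 1.56 with a 95% interval of 0.831 to 2.99. The intervals of all 9 ratios include 1, from 0.963 (0.54 to 1.71) at Atf4 to 1.31 (0.845 to 2.04) at Dnajb9 and 1.29 (0.734 to 2.3) at Calr. They cover counting error only.

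The highest summit was not always at the same place. At Hsp90b1 it was the middle peak in WT and the nearest peak in Uhrf1hepKO, and at Eif2ak3, Atf6 and Calr the summits of overlapping peaks stood apart. Ranked within its own list by fold, the best H2A.Z peak stood higher in Uhrf1hepKO at 7 of the 9 genes, against 44.5% of protein-coding genes. The shift was largest at Xbp1, from percentile 38.1 to 74.5, and at Atf6, from 51.2 to 77.0. At Atf6 the WT peak with the most reads had a local background of 5.53 reads in place of the usual 3.1, and its fold of 4.29 was below that of the farther WT peak.

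**Figure D3:**
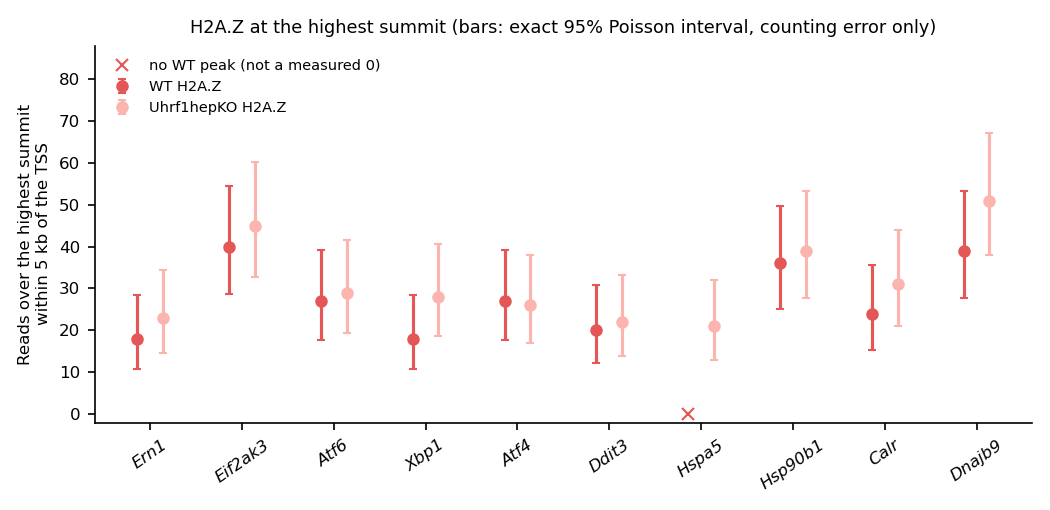
Reads over the highest H2A.Z summit within 5 kb of the TSS for each gene in WT and Uhrf1hepKO, with exact 95% Poisson intervals as bars. The intervals of the livers overlap at all 9 genes with both values, and the cross at Hspa5 marks the missing WT peak.

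For ATACseq only the mean fold over each peak is given, so reads were not worked out for the peaks of the genes. Within its own list, the fold stood higher in Uhrf1hepKO at 4 of the 7 genes, against 51.3% of the 5045 protein-coding genes with a peak in both lists. These were Atf4 (percentile 21.0 in WT and 76.7 in Uhrf1hepKO), Ddit3 (51.0 and 85.7), Hsp90b1 (39.0 and 72.2) and Hspa5 (73.5 and 93.5). Eif2ak3, Calr (82.0 and 76.5) and Dnajb9 (94.2 and 92.6) stood slightly lower. The difference in rank was largest at Atf4, followed by Ddit3 and Hsp90b1. A fold has no error in these lists, and the backgrounds of the ATACseq libraries differed by 1.28 times, so the part of depth in these ranks was not tested.

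**Figure D4:**
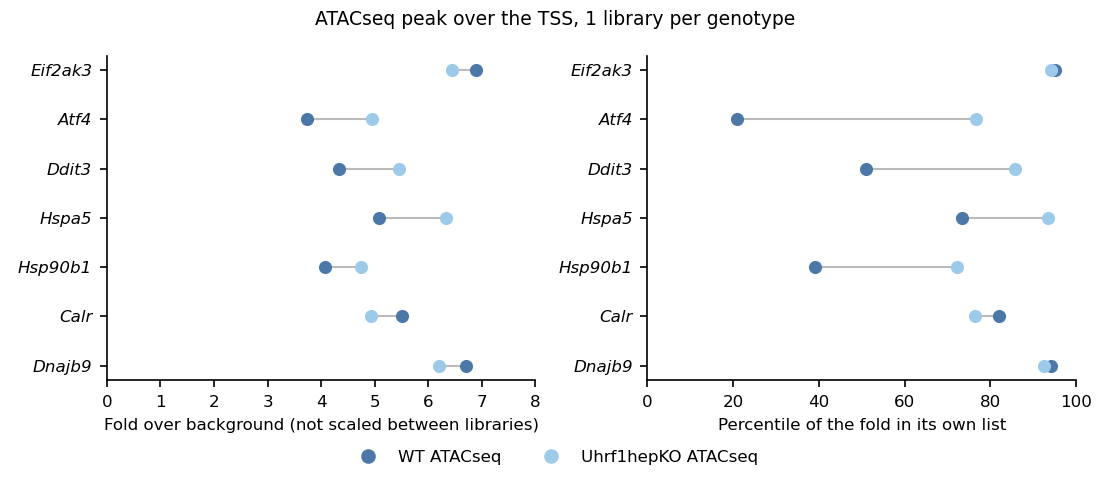
Mean fold over background (left) and percentile of that fold within its own list (right) of the ATACseq peak over the TSS, for the 7 genes that had one, with WT in dark and Uhrf1hepKO in light blue. Atf4, Ddit3, Hspa5 and Hsp90b1 lie to the right in Uhrf1hepKO, and the percentiles of Eif2ak3 and Dnajb9 stay above 90 in both livers.

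The ATACseq peaks were where the ERSE of the chaperone genes lie, and H2A.Z was not. An exact ERSE match was found in 3 of the 9 promoters, those of Hspa5, Hsp90b1 and Calr, and in 39 of all 32851 promoters of the table (0.119%). Read in the direction of the element, the 4 sites are as follows, with the capitals marking the whole element.
Hspa5, 65 bp upstream of the RefSeq TSS: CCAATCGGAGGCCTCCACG
Hsp90b1, 212 bp upstream: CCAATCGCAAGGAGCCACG
Hsp90b1, 107 bp upstream, on the other strand: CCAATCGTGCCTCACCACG
Calr, 162 bp upstream, on the other strand: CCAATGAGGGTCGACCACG
All 4 lay under an ATACseq peak in both livers and under no H2A.Z peak in either. The distances of the peaks are counted from the GENCODE TSS, which differs from the RefSeq one at these genes. Counted from the GENCODE TSS (negative is upstream), the element began at 55 bp in Hspa5 and -159 bp in Calr. In Hsp90b1 the elements began at -147 and -42 bp. Of the 35 separate ERSE sites of all promoters, 13 (37.1%) lay under a WT and 11 (31.4%) under a Uhrf1hepKO ATACseq peak, and 0 under an H2A.Z peak. Members make up 4 of those 35.

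The simpler boxes were more widespread. CCAAT was in 7 of the 9 promoters, against 37.4% of all, and it was absent from the letters of Ern1 and Xbp1, the 2 genes of the 9 without an ATACseq peak. With 500 bp on either side of the TSS it was in 8 of the 9, Xbp1 included, against 71.6% of all. A link of this box to accessibility was not tested. Eif2ak3 and Hsp90b1 had 6 CCAAT boxes each and Hspa5 had 4, counting those within an ERSE. CCACG, which is also the end of the ERSE, was in 6 of the 9, against 32.8%. Neither ERSE-II (ATTGG and CCACG with 1 free base between them, in 0.0365% of all promoters), nor UPRE (TGACGTGG, 0.676%), CRE (TGACGTCA, 1.79%) or CARE (TTGCATCA, 0.895%) was found in any of the 9, all on both strands. In a wider window of 500 bp on either side, Xbp1 had an ERSE 265 bp downstream of the RefSeq TSS (CCAATCGCGGACGGCCACG) and Ddit3 had a CARE 301 bp upstream, and neither lay under a peak. A match is a description of letters and not of binding.

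The base composition under the peaks differed between the assays. The median ATACseq peak at the genes had 37 CpGs and a GC content of 60.1% in WT and 44 CpGs and 60.8% in Uhrf1hepKO. The median H2A.Z peak had 7 CpGs and 47.7% in WT and 6 CpGs and 49.0% in Uhrf1hepKO. Most H2A.Z peaks did not overlap an ATACseq peak. Of the H2A.Z peaks in the window, 5 of 18 overlapped one in WT and 3 of 19 in Uhrf1hepKO. Those at Ern1, Atf6 and Xbp1 had no ATACseq peak in the window to overlap. The share over the whole lists is not given here.

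Peaks within 5 kb of the TSS were mostly shared by both livers, and the few in the genes beyond 5 kb were not. All 7 ATACseq peaks in the window overlapped one in the other liver, as did 15 of 18 WT and 15 of 19 Uhrf1hepKO H2A.Z peaks. Over whole lists, 61.3% and 60.3% of ATACseq and 70.0% and 75.6% of H2A.Z peaks did so in WT and Uhrf1hepKO. Only 3 peaks lay in the genes beyond 5 kb, all in introns and each in one liver only. Atf6 held a WT ATACseq peak (chr1:170761746-170761924, fold 4.25), Ern1 a WT H2A.Z peak with 21 reads (chr11:106412982-106413076), and Eif2ak3 a Uhrf1hepKO H2A.Z peak with 20 reads (chr6:70871659-70871762).

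A list of 89 other genes of the response, grouped by role, was set beside the 10. In the 5 kb window an ATACseq peak was present at 53 of them in WT (59.6%) and 56 in Uhrf1hepKO (62.9%), and an H2A.Z peak at 78 (87.6%) and 76 (85.4%). Among 24 other chaperones and folding enzymes, 19 had an ATACseq peak in WT and 20 in Uhrf1hepKO, and among 20 genes of ER-associated degradation 15 and 14 did. The share was lower among 19 further sensors and processing genes, 10 in both livers, and lowest among 26 targets of PERK and ATF4, 9 in WT and 12 in Uhrf1hepKO. Chaperones had an ATACseq peak more often than sensors here and in the 10 genes, though the Wilson intervals of the smaller groups are wide. The other roles are not shared by the lists. The median CpG count of the 89 genes within 500 bp of the TSS was 66.

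H2A.Z on the upstream side only was also more frequent in the wider list as a whole than over all genes, but less so than in the 10 and not in every role. It was found at 36 of 78 genes in WT (46.2%, interval 35.5 to 57.1%) and 38 of 76 in Uhrf1hepKO (interval 39.0 to 61.0%). Summits on both sides were found at 33 (42.3%) and 30 (39.5%). By role, the upstream-only share in WT and Uhrf1hepKO was 70.6% and 73.7% in ER-associated degradation. It was 43.5% and 56.5% among chaperones and folding enzymes, and 42.9% and 35.3% among targets of PERK and ATF4. Among further sensors and processing genes it was 29.4% in both livers, below the 32.4% and 34.9% of protein-coding genes. The intervals of the 10 genes and of the wider list overlap, though only narrowly in Uhrf1hepKO, and the difference between them was not tested.

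By the highest WT fold in each role, the leading genes were the following. Among chaperones and folding enzymes these were Sdf2l1 in ATACseq (fold 7.49 in WT and 5.6 in Uhrf1hepKO), a partner of BiP, and Sec61b in H2A.Z (48 reads and 49), a subunit of the translocon. In ER-associated degradation they were Derl2 (6.31 and 5.63) and Ufd1 (52 reads and 59), which acts with the ATPase VCP. Among sensors and processing genes they were Creb3l2 (7.89 and 6.59), a relative of ATF6, and Atf6b and Traf2 with equal H2A.Z (44 reads each in WT, 37 and 41 in Uhrf1hepKO). Among targets of PERK and ATF4 they were the tRNA synthetase genes Tars (7.84 and 5.97) and Nars (47 reads and 46).

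ATACseq in one liver only was found at 7 of the 89 genes. Fkbp2, Ppp1r15a, Sec63, Sesn2 and Tnfrsf10b had it in Uhrf1hepKO only (5.62%, against 4.85% of protein-coding genes), with folds from 3.54 at Sec63 to 4.31 at Sesn2. Ppp1r15a, which encodes the phosphatase subunit GADD34 that reverses the action of PERK, had a fold of 3.72. Dnajc1 (fold 5.51) and Syvn1 (3.66), the ubiquitin ligase HRD1, had it in WT only (2.25%, against 7.19%). H2A.Z was found in Uhrf1hepKO only at Derl3 and Ube2j1 (2.25%, against 2.19%), both of ER-associated degradation. It was found in WT only at Asns, Cth, Phgdh and Slc7a11 (4.49%, against 3.95%), all from the targets of PERK and ATF4. The genes with H2A.Z in one liver only were named after their values were seen. In the 5 kb window around the 5′ end of the gene, no list had a peak at Atf3, Cebpb, Map3k5, Nfyc, Nupr1, Psat1 or Stc2 (7.87%, against 42.3%). With every transcript start counted, those with an H2A.Z peak included Atf3 and Psat1 in WT and Psat1, Map3k5 and Nfyc in Uhrf1hepKO. In WT, 24 of the 26 targets of PERK and ATF4 and 18 of the 19 sensors and processing genes then had one. In Uhrf1hepKO these were 19 of 26 and 19 of 19.

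**Figure D5:**
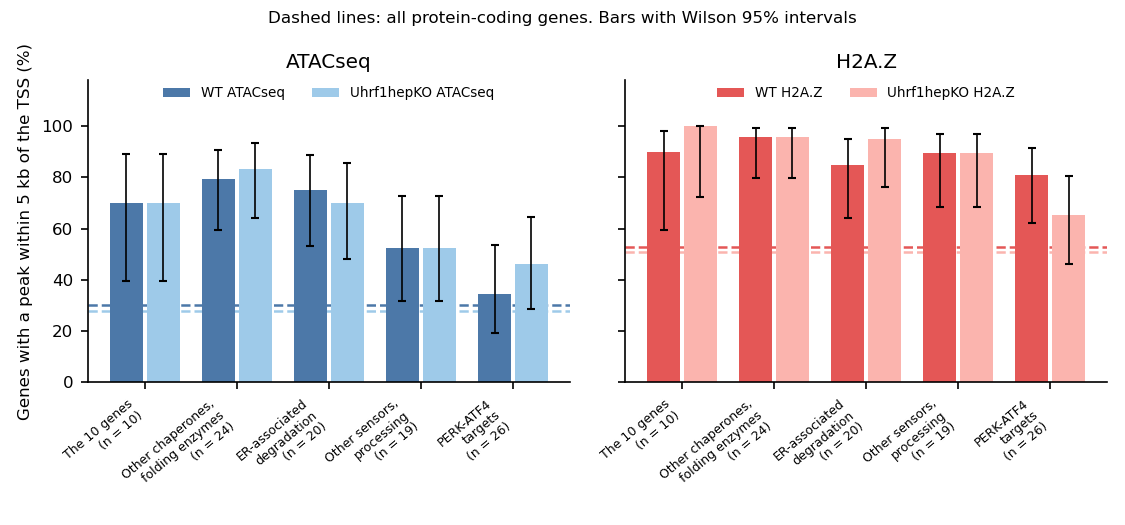
Share (%) of genes with a peak in the 5 kb window for the 10 genes and for the other unfolded protein response genes by role, with Wilson 95% intervals that cover counting error only, and dashed lines for all protein-coding genes. The bars lie above the dashed lines in every group, and targets of PERK and ATF4 have the lowest bars in both assays and both livers.

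The pattern of peaks over the 4 lists sorted the 10 genes into 3 kinds. The 6 genes with a peak in every list share this pattern with 4595 protein-coding genes in all (20.9%). Ern1, Atf6 and Xbp1, with H2A.Z in both livers and no ATACseq peak, share theirs with 4009 (18.3%). Hspa5 stands in the small group described above. Both larger patterns are thus common among protein-coding genes, and only that of Hspa5 is rare.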

How the data were processed

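ATACseq and H2A.Z ChIPseq peak lists of 1 WT and 1 Uhrf1hepKO liver were used, 4 libraries in all. Per the paper's methods, the authors aligned reads to GRCm38.p4 with BWA, processed them with Picard (duplicates removed for ChIPseq) and ran MACS2 at a p-value of 0.05, in broad mode for ATACseq. There is 1 deposited list per library. The mode for H2A.Z is not given in the sources used here. For ATACseq the methods state single-end sequencing but name the paired-end option of MACS2, so whether an ATACseq pileup counts reads or fragments is unknown. The submitters' processing notes also name FastQC 0.11.5 and Trimmomatic. The highest q-value was 0.0997 and 0.0993 in the ATACseq and 0.05 and 0.0489 in the H2A.Z lists. The deposited score restates the q-value for display and was not used. The deposited fold is a ratio of read pileup to local background within a library, at the summit for H2A.Z and averaged over the peak for ATACseq, and was not scaled between libraries. The deposited −log10 p- and q-values refer to the same positions.

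Peaks off the autosomes and sex chromosomes were dropped (10758, 10972, 51702 and 47391 were deposited). A peak belonged to a gene if it overlapped the gene or 5 kb on either side of its TSS by 1 bp. The 10 genes and all lists were chosen with earlier results of these data known. Reads over an H2A.Z summit were solved from fold = (reads + 1)/(background + 1), and a Poisson p-value of those reads matched the deposited −log10 p within 0.001 for 100.0% of peaks. The ATACseq backgrounds were solved in this way from the commonest fold and p-value of each list only. Intervals are exact Poisson (reads), exact binomial (ratios of reads) and Wilson (shares) at 95%. They cover counting error only. A percentile is the share of peaks in the list with an equal or lower fold. Genes named from the 89 others are those with the highest WT fold in each role and assay, those with ATACseq in one liver only, and, chosen after their values were seen, those with H2A.Z in one liver only or no peak at all. Alternatives varied the window, TSS, peak threshold, overlap, background and motif window. The assignment of peaks to a TSS and the side of the summit were tested on planted peaks, and the solving of reads on simulated summits. The other steps were not tested in this way. The scripts ran in Python 3.11.15 with scipy 1.17.1, pandas 2.3.3, numpy 2.4.6 and, for plots, matplotlib 3.10.9.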

Additional observations from a re-analysis of the deposited data

How the results depend on the processing

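No paired analysis was possible because each condition has 1 library and no result comes from a test, and for the same reason no replicate could be left out. Of the values recomputed under another setting, 82 stayed within the limits set for them and 13 moved. The limits were 1.5 times for a count and the Wilson interval for a percent. Within them, some counts still fell at the median fold. In WT, genes with an ATACseq peak went from 7 to 5 and genes with both assays from 6 to 4. Genes with more H2A.Z reads in Uhrf1hepKO went from 8 to 6. With the starts of all transcripts, genes with H2A.Z summits on both sides of the TSS numbered 2 in WT and 1 in Uhrf1hepKO, against 1 and 0, and with peaks at or above the median fold, or with a q-value of at most 0.01, the WT count was 0. Genes with an ATACseq peak in one liver only numbered 0, but 2 with peaks at or above the median fold and 1 with a q-value of at most 0.01. Genes with an H2A.Z peak in one liver only went from 1 to 2 at the median fold, and they were not the same genes. The Hspa5 peak, with a fold of 5.11, was below the Uhrf1hepKO median of 5.35 and dropped out. Ern1 and Xbp1 then had a peak in Uhrf1hepKO only, since their WT folds of 4.63 were below the WT median of 5.12. At the median fold, 100% (5 of 5) of WT ATACseq peaks at the genes overlapped the other liver, against 87.5%. Over all annotated genes the background shares were 16.9% and 15.9% for ATACseq and 32.2% and 30.9% for H2A.Z in WT and Uhrf1hepKO. With 500 bp on either side of the TSS, 1 promoter had a CARE. The alternatives for upstream-only summits and for H2A.Z reads were added after the data were seen. Depth limits the ATACseq lists most, since their weakest peaks rest on a few reads over the background, and a gene without a peak may hold signal too low to be called.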
